A study of Mus musculus with 2 samples.

Results

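Neuronal RNA-binding and splicing regulators were described in J-RGCs, a type of mouse retinal ganglion cell that makes the junctional adhesion protein JAM-B, encoded by Jam2. The set held 40 genes chosen by name, out of 24015 gene symbols measured, and all 40 were listed in both count tables. The study profiled 1 group only: J-RGCs from the mouse retina at postnatal day 6, labelled with green fluorescent protein by a J-RGC-specific transgenic mouse line and purified with magnetic beads and flow cytometry. There were 2 libraries, A and B, from different litters, and each pooled 5 to 6 animals. The strain and the promoter of the transgene are named in no source used here. With no other cell type, age or treatment to set them against, genes were compared with each other in the same cells, and library B was compared with library A.

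RNA-binding proteins of this set decide which exons a transcript keeps, how long it lasts, where in the cell it goes and when it is translated. Many belong to families in which one member is made in most tissues and others mainly in neurons. During neuronal differentiation the balance shifts towards the neuronal members, and large numbers of alternative exons in ion channels, adhesion molecules and synaptic proteins change with it.

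The depth was 7916204 gene counts in library A and 13744313 in library B. The 11 ganglion cell markers examined were all detected, and their summed level was 10450 counts per 1000000 gene counts (CPM) in A and 14372 CPM in B. Jam2 stood at 2344 CPM in A and 1203 CPM in B. Markers of other retinal cells had lower sums. Of the glial lists, 8 of 11 microglial markers were detected and summed to 571 CPM in A and 469 CPM in B, 5 of 7 Müller glial markers to 514 and 444 CPM, and 1 of 6 astrocyte markers to 51.0 and 30.2 CPM. The glial genes did not move one way between the libraries. Rlbp1, Sox9 and Gfap were at 0 in A and at 1.6, 0.364 and 1.09 CPM in B, whereas Aqp4 was at 4.93 CPM in A and 0 in B. Slc1a3 stood at 11.1 and 3.06 CPM and Vim at 75.9 and 38.7 CPM. Glul, at 87.0 and 129 CPM, and Dkk3, at 317 and 223 CPM, were the highest of the Müller glial list. Detected amacrine cell markers were 6 of 9, with sums of 690 and 844 CPM, and endothelial and mural cell markers 5 of 9, with 412 and 123 CPM. The mural genes Rgs5, at 342 and 82.4 CPM, and Pdgfrb, at 51.9 and 10.3 CPM, carried that sum, while the endothelial genes Cdh5, at 0.884 and 8.66 CPM, and Tek, at 1.64 and 8.22 CPM, were higher in B. Cycling cell markers were 4 of 6, with 167 and 80.5 CPM, and rod markers 5 of 7, with 40.7 and 40.6 CPM. The part of these other cells in the levels below was not tested. In pooled cells, fewer cells expressing a gene and less RNA per cell cannot be told apart.

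Most of the set was detected. Taking at least 1 CPM in both libraries as detection, 38 of the 40 genes passed, against 46.8% of all symbols and 66.2% of those with a count. The exceptions were Mbnl3, which passed in A only, and Igf2bp1, which had 2 counts in A and 6 in B. The set was chosen with earlier results of these data known, so its share is a description only. The lists of SR protein, hnRNP and RNA granule genes described below were detected in full, so a high share is not particular to this set. The list of epithelium, muscle and germ line was mostly not detected. Together the 40 genes took 55495 counts in A and 108723 in B, or 0.701% and 0.791% of the gene counts. At least 100 CPM was reached in both libraries by 17 genes and at least 10 CPM by 35. The median member stood at 96.0 CPM in A and 119 CPM in B, while the median symbol with a count stood at 5.81 and 8.66 CPM. Because a longer transcript collects more reads, levels of different genes are compared here per kilobase of exon (RPKM, the CPM divided by the exon length in kilobases). On that scale the medians were 11.2 and 13 RPKM for the 40 genes, and 1.52 and 2.29 RPKM for all symbols with a count and a length.

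**Figure D1:**
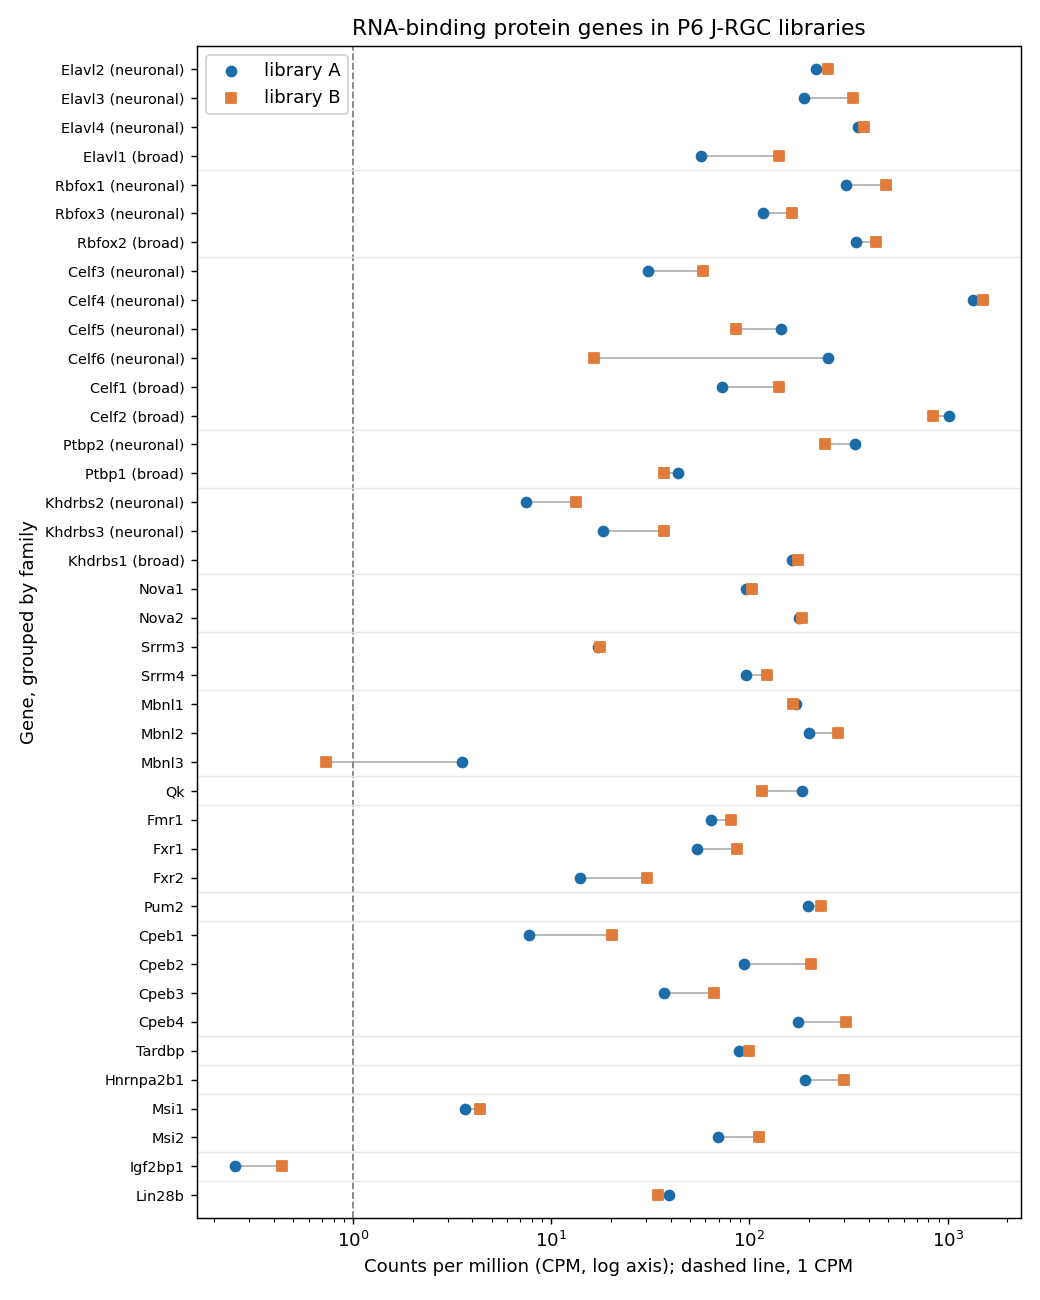
CPM of each of the 40 genes on a log axis, grouped by family. Circles are library A, squares library B, a line joins the 2 values of a gene and the dashed line marks 1 CPM. Celf4 and Celf2 lie farthest to the right, Igf2bp1 lies below 1 CPM in both libraries, and Celf6 has the longest line, with 249 CPM in A and 16.4 CPM in B.

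Families with both neuronal and broadly expressed members come first, then the other families by role. Of the 40 genes, 12 were classed as neuronal from textbook knowledge, 6 as broadly expressed paralogues of these, and 22 belonged to families without such a contrast. The neuronal genes had a median level of 26.7 RPKM in A and 27.2 RPKM in B, and the broad ones 17.4 and 22.0 RPKM. The remaining 22 stood at 8.77 and 9.89 RPKM. They include genes known from neurons, such as Nova1, Nova2 and Srrm4, so their median is not that of non-neuronal genes. Each ratio of a pair of genes is the mean over both libraries of the per-length ratio, with a 95% interval from counting error and the spread between libraries of genes at a like level. A pair was counted as separated when this interval excluded equality and both libraries had the same direction. These intervals measure the spread between the libraries only. Each ratio was also taken with 5 other treatments of length, called other lengths here: the longest transcript, the coding length, exons of protein-coding transcripts, windows unique to the gene, and no correction. Their range is given where it lies over 1.5 times away or ends a call.

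Of 12 pairs of a neuronal gene and its broad paralogue, 5 had the neuronal gene higher, 2 had it lower and 5 were not separated. The neuronal gene was higher for Ptbp2, Elavl2, Elavl3, Elavl4 and Celf4, and lower for Khdrbs2 and Khdrbs3. Without library A, where the interval is wider by construction, Ptbp2 and Elavl2 were no longer separated and the count was 3. Without library B it was 6, because Celf6 joined. Over all 28 pairs, which include other families, 17 were separated. The 12 pairs are not independent, since those of a family share the same broad gene: Elavl1, Rbfox2, Celf1 or Khdrbs1. Celf1 was used for every CELF pair, although Celf2 was also classed as broad and was higher per length.

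**Figure D2:**
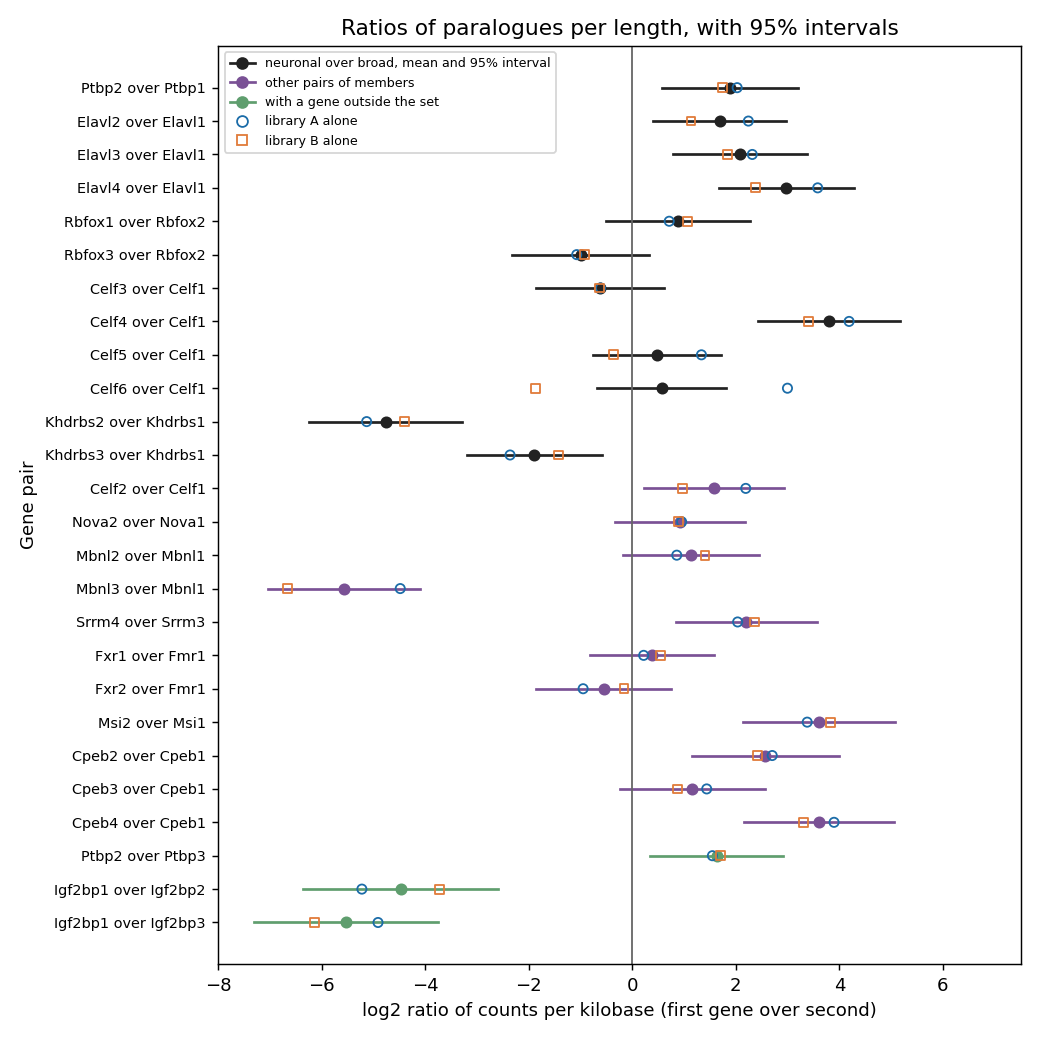
Ratio of per-length levels for the paralogue pairs, first gene over second, on a log2 axis, without Lin28b over Lin28a, which has a lower bound only, and without 1 pair not reported here. Filled points are means over both libraries, bars their 95% intervals, and the small marks the values in A and B. Celf4 over Celf1 lies farthest to the right among the neuronal over broad pairs at 13.9-fold, and Khdrbs2 over Khdrbs1 farthest to the left at 0.0367.

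Ptbp2 and Ptbp1 encode polypyrimidine tract-binding proteins. Ptbp1 represses neuronal exons in most non-neuronal cells, and Ptbp2 takes its place as neurons are born. Ptbp2 stood at 343 CPM in A and 242 CPM in B, and Ptbp1 at 43.5 and 37.1 CPM. Per length this was 37.4 and 26.3 RPKM for Ptbp2, against 9.17 and 7.83 RPKM for Ptbp1. Ptbp2 was above Ptbp1 in both libraries, by 3.70-fold on average (log2 1.89, interval 0.57 to 3.20). The interval reached equality when it was widened for all 28 pairs compared (-0.21 to 3.98) and without library A (-0.11 to 3.61). Other lengths gave 4.64-fold to 7.47-fold. The third paralogue, Ptbp3, best known from blood cells, stood at 12.8 and 8.06 RPKM, so Ptbp2 exceeded it 3.09-fold (1.26 to 7.54), and 3.79-fold to 6.88-fold with other lengths. That separation was lost without either library, with log2 ratios of 1.71 without A and 1.55 without B, and with the widened interval. Of 50-base windows along the Ptbp1 transcript, 22.6% also occur in another annotated gene, which makes the level of Ptbp1 less certain. With the length taken from windows unique to each gene, both pairs stayed separated. The counts were not restricted to those windows, so the effect of shared sequence on the Ptbp1 level was not tested.

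The link between these paralogues runs through a short exon of Ptbp2. In mouse cells PTBP1 represses Ptbp2 exon 10, and transcripts that skip it shift frame and are degraded. The exon is printed because its inclusion decides whether the counted Ptbp2 RNA encodes the protein. It lies within the coding sequence at chr3:119724612-119724645 of GRCm38 on the minus strand and is given in the direction of the gene, from the GENCODE M21 transcript Ptbp2-201.
Ptbp2 exon 10: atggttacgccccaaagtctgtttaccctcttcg
It has 34 bases, which leaves 1 base over after division by 3, and 22 of them are pyrimidines. The annotation holds 3 transcripts with the exon and 2 that join its neighbours without it, and both that skip it are labelled as targets of nonsense-mediated decay. Gene counts do not tell the isoforms apart, so the share of Ptbp2 RNA with exon 10 is not known here.

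The ELAV (Hu) proteins bind U-rich and AU-rich stretches and stabilise mRNAs. Elavl1 (HuR) is made in nearly all cells and Elavl2, Elavl3 and Elavl4 (HuB, HuC and HuD) mainly in neurons. Elavl4 stood at 355 CPM in A and 379 CPM in B, Elavl2 at 216 and 248 CPM, and Elavl3 at 189 and 334 CPM. Elavl1 was the lowest of the family at 57.0 and 141 CPM. Per length the order was Elavl4 at 65.9 and 70.4 RPKM, then Elavl3 at 27.4 and 48.5 RPKM and Elavl2 at 26 and 29.8 RPKM, and last Elavl1 at 5.50 and 13.6 RPKM. Each neuronal member exceeded Elavl1 in both libraries: Elavl4 by 7.88-fold (3.18 to 19.5), Elavl3 by 4.22-fold (1.73 to 10.3) and Elavl2 by 3.22-fold (1.33 to 7.82). Without library A the Elavl2 ratio was a log2 of 1.13 and was no longer separated, nor was it with the widened interval or per coding length. Elavl3 lost its separation when length was taken from exons of protein-coding transcripts only. Other lengths gave 3.47-fold to 5.67-fold for Elavl4, 2.36-fold to 3.27-fold for Elavl3 and 2.17-fold to 3.54-fold for Elavl2. The Elavl4 ratio was 12-fold in A and 5.18-fold in B. The neuronal members together held 95.6% of the family's counts per kilobase in A and 91.6% in B (93.6% ± 2.80, SD, n = 2).

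CELF proteins regulate splicing and bind GU-rich 3′ ends of transcripts. Celf1 and Celf2 are made in many tissues and Celf3 to Celf6 mainly in the nervous system. Celf4, which in mouse brain binds the 3′ untranslated regions of many synaptic mRNAs, was the highest of all 40 genes per length in both libraries. It stood at 1347 CPM in A and 1510.3 CPM in B, or 157 and 176 RPKM, above 99.2% and 99.3% of all symbols with a count. Celf4 exceeded Celf1 by 13.9-fold (5.36 to 36.0), where Celf1 stood at 8.60 and 16.6 RPKM, and by 14.1-fold to 27.9-fold with other lengths. It alone held 52.2% of the family's counts per kilobase in A and 69.5% in B. Celf3 stood at 30.7 and 58.4 CPM, or 5.61 and 10.7 RPKM, and was not separated from Celf1 at 0.648-fold (0.274 to 1.53). It was separated, at 0.420-fold, without length correction, and other lengths reached 1.06-fold, so its direction depends on them. Celf5 stood at 145 CPM in A and 85.7 CPM in B, or 21.7 and 12.9 RPKM, and was above Celf1 in A only, with ratios of 1.10-fold to 2.25-fold with other lengths. Celf2 stood at 1018 and 843 CPM. Its exons span 25884 bases, the longest of the set, so per length it came to 39.3 and 32.6 RPKM. That was 2.99-fold above Celf1 (1.17 to 7.66), which was not separated without library A or with the widened interval. Every other length gave a larger ratio, from 7.38-fold to 9.17-fold. Set against Celf2 instead of Celf1, Celf4 was higher in both libraries, by a smaller gap in CPM than per length. Per length Celf3 and Celf5 were below Celf2 in both libraries, and Celf6 was below it in B only. The neuronal members held 84.1% of the family in A and 80.6% in B (82.3% ± 2.47, SD, n = 2). Counting Celf2, which is also abundant in brain, as neuronal brought this to 95.3%.

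Celf6 was the least settled member. It had 1970 counts in A and 226 in B, or 249 and 16.4 CPM, a 15.1-fold excess in A. Per length it was the third of the 40 genes in A at 68.7 RPKM and the 34th in B at 4.54 RPKM. Its ratio to Celf1 was a log2 of 3.0 in A and -1.87 in B, so no direction can be given, and other lengths also lay on both sides of equality (0.634-fold to 1.71-fold). The mean ratio of 1.48-fold had an interval of 0.624 to 3.51, and the value of each library lay outside it, since the interval takes the spread of genes at a like level. Whether Celf6 is high in J-RGCs therefore cannot be read from these libraries.

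RBFOX proteins bind GCAUG in introns next to alternative exons. Rbfox1 and Rbfox3 were classed here as neuronal, with Rbfox3 known as the antigen NeuN, and Rbfox2, which is more widely made, as broad. All of them were abundant: Rbfox1 at 306 CPM in A and 489.9 CPM in B, Rbfox3 at 117 and 164 CPM, and Rbfox2 at 346 and 434 CPM. Per length Rbfox1 led at 69.6 and 111 RPKM, ahead of Rbfox2 at 42.5 and 53.3 RPKM and Rbfox3 at 20.2 and 28.1 RPKM. The order was the same in both libraries. Neither neuronal member was separated from Rbfox2, with Rbfox1 at 1.85-fold (0.703 to 4.87) and Rbfox3 at 0.501-fold (0.199 to 1.26). Other lengths gave 1.00-fold to 2.28-fold for Rbfox1 and 0.358-fold to 0.791-fold for Rbfox3, which was separated without length correction. Rbfox1 and Rbfox3 together held 67.9% of the family in A and 72.4% in B (70.1% ± 3.17, SD, n = 2).

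The KHDRBS family had the opposite order. Khdrbs1 (Sam68) is broadly expressed, and Khdrbs2 (SLM1) and Khdrbs3 (SLM2) are neuronal regulators of exons in the neurexin genes. Khdrbs2 stood at 7.45 CPM in A and 13.3 CPM in B, Khdrbs3 at 18.2 and 37.3 CPM, and Khdrbs1 at 164 and 176 CPM. Per length Khdrbs2 was 27.2-fold below Khdrbs1 (9.79 to 75.7), at 0.724 and 1.29 RPKM against 25.6 and 27.4 RPKM. Khdrbs3 was 3.72-fold below it (1.5 to 9.20), at 4.97 and 10.2 RPKM, and this separation was lost without library A and with the widened interval. Other lengths gave 13.4-fold to 46.3-fold for Khdrbs2 and 3.27-fold to 6.52-fold for Khdrbs3. The neuronal members held 18.2% of the family in A and 29.5% in B (23.8% ± 8.02, SD, n = 2).

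**Figure D3:**
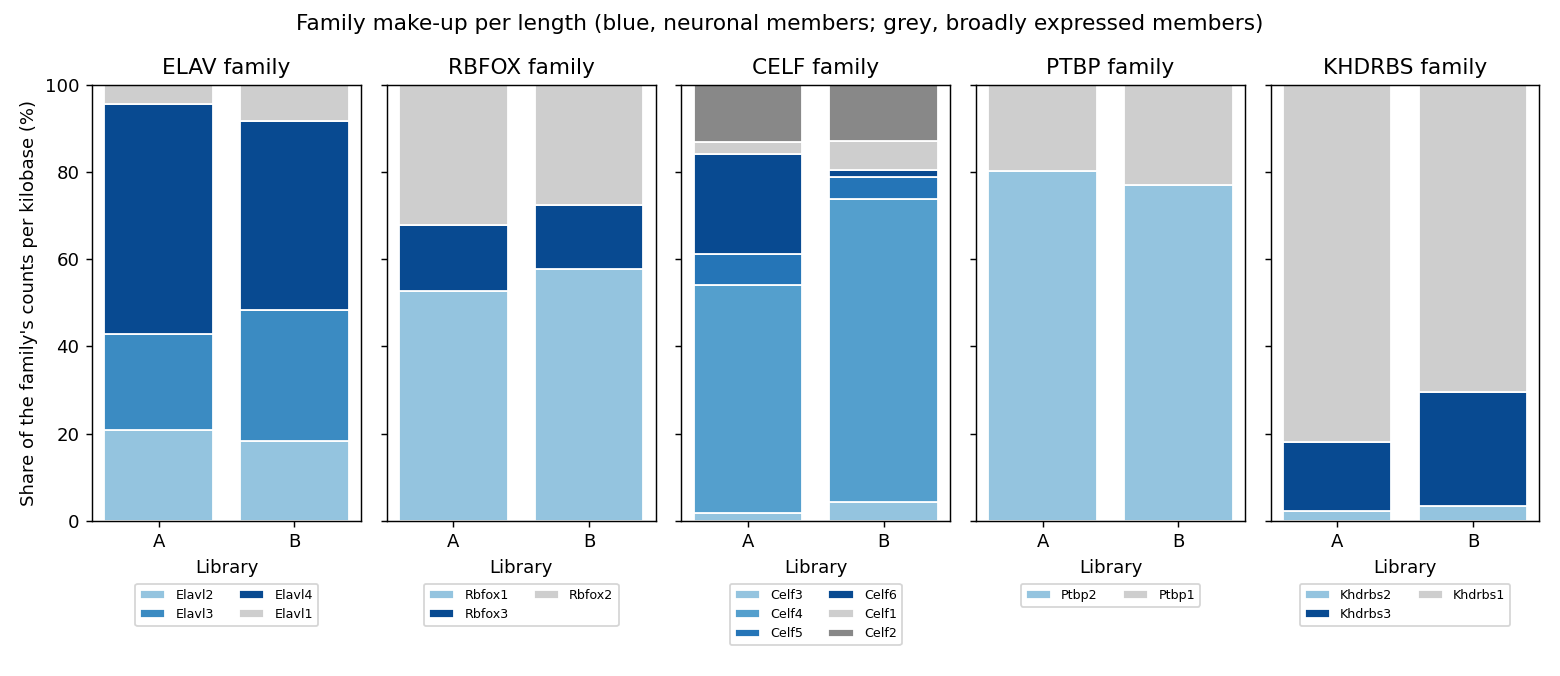
Share of each family's counts per kilobase held by its members in libraries A and B, with neuronal members in blue and broadly expressed ones in grey. Blue takes most of the bar in the ELAV, RBFOX, CELF and PTBP families and 18.2% to 29.5% in the KHDRBS family. Celf6 takes 22.8% of the CELF bar in A and 1.79% in B. The PTBP bar holds Ptbp1 and Ptbp2 only. Ptbp3, outside the set, stood above Ptbp1 per length in both libraries and would lower the Ptbp2 share.

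Among the other splicing factors, Nova1 and Nova2 mark neurons and govern exons of synaptic proteins. Nova2, the form of the neocortex, stood at 179 CPM in A and 183 CPM in B, and Nova1, the form of the hindbrain and spinal cord, at 96.4 and 103 CPM. Per length Nova2 was at 21.3 and 21.9 RPKM and Nova1 at 11.0 and 11.8 RPKM. The 1.90-fold ratio had nearly the same size in both libraries but its interval included equality (0.793 to 4.55). For Nova2, 30.8% of windows also occur in another annotated gene, which the counts do not list. Srrm4 (nSR100) promotes inclusion of neuronal microexons, and Srrm3 is its relative with a related role. Srrm4 stood at 95.6 and 123 CPM and Srrm3 at 17.2 and 17.5 CPM. Srrm4 exceeded Srrm3 per length by 4.59-fold (1.79 to 11.8), at 11.0 and 14.1 RPKM against 2.68 and 2.74 RPKM.

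Muscleblind proteins promote the adult splicing pattern and are sequestered by repeat RNA in myotonic dystrophy. Mbnl2, the main form in brain, stood at 200.3 CPM in A and 280.2 CPM in B, and Mbnl1 at 172 and 165 CPM. Per length this was 16.7 and 23.4 RPKM for Mbnl2 and 9.21 and 8.83 RPKM for Mbnl1, a 2.19-fold ratio that was not separated (0.883 to 5.43) and was 1.4-fold to 1.81-fold with other lengths. Mbnl3 was nearly absent, with 28 counts in A and 10 in B, or 3.54 and 0.728 CPM. It was 47.6-fold below Mbnl1 per length (17.2 to 131), by 22.4-fold in A and 101-fold in B, and by 83.5-fold to 102-fold with other lengths. The size of that gap is thus uncertain, while its direction was the same throughout. Qk (quaking), a splicing and stability factor best known from myelinating glia, stood at 184 CPM in A and 116 CPM in B, or 12.9 and 8.11 RPKM. The glial marker sums given above were also higher in A than in B, and their part in the Qk level was not tested.

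Proteins acting on translation and transport came next. Fmr1 encodes FMRP, the translational repressor lost in fragile X syndrome, and Fxr1 and Fxr2 encode its paralogues. Fmr1 stood at 64.2 CPM in A and 81.1 CPM in B, Fxr1 at 54.6 and 86.5 CPM, and Fxr2 at 13.9 and 30.5 CPM. Per length neither paralogue was separated from Fmr1: Fxr1 was at 1.30-fold (0.565 to 3.0) and Fxr2 at 0.681-fold (0.276 to 1.68). With other lengths Fxr1 lay on both sides of equality (0.888-fold to 1.44-fold). Fxr2 was at 0.268-fold to 0.432-fold, and it was separated from Fmr1 per coding length and without length correction. Pum2 encodes a Pumilio repressor that binds 3′ untranslated regions. It stood at 198 and 229 CPM, or 27.3 and 31.5 RPKM, with library B 1.15-fold above library A.

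CPEB proteins bind U-rich elements near the poly(A) signal and control tail length and translation, at synapses among other places. Cpeb4 was the highest at 176 CPM in A and 307 CPM in B, followed by Cpeb2 at 94.2 and 204 CPM, Cpeb3 at 37.1 and 66.0 CPM and Cpeb1 at 7.71 and 20.3 CPM. The order was the same in both libraries. Against Cpeb1, the founding member with the best known role in oocytes, Cpeb4 was 12.2-fold higher per length (4.45 to 33.3) and Cpeb2 5.91-fold higher (2.21 to 15.8). Cpeb3 was not separated from it at 2.23-fold (0.843 to 5.89), but was per coding length, at 3.10-fold, and without length correction, at 3.94-fold. Other lengths gave 9.04-fold to 18.5-fold for Cpeb4 and 4.81-fold to 11.0-fold for Cpeb2. Cpeb4 alone held 59.4% of the family's counts per kilobase in A and 54.8% in B.

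Tardbp and Hnrnpa2b1 encode ubiquitous nuclear proteins, TDP-43 and hnRNP A2/B1, in which mutations cause neurodegenerative disease in humans. Tardbp stood at 88.4 CPM in A and 99 CPM in B, or 11.3 and 12.7 RPKM. For Tardbp, 24.4% of windows occur in another gene, chiefly the neighbouring Masp2. Hnrnpa2b1 stood at 190 CPM in A and 301 CPM in B, or 28.9 and 45.7 RPKM, the eighth and the seventh of the set per length.

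The last group is known from progenitors and embryos. Msi1, the Musashi protein of neural stem cells, stood at 3.66 CPM in A and 4.37 CPM in B. Msi2 stood at 69.5 and 112 CPM, 12.1-fold above Msi1 per length (4.39 to 33.5), and 10.5-fold to 22.8-fold with other lengths. Igf2bp1, which carries β-actin mRNA in growing axons, stood at 0.253 CPM in A and 0.437 CPM in B, from the 2 and 6 counts given above. Igf2bp2, at 8.97 and 4.73 CPM, and Igf2bp3, at 7.96 and 28.1 CPM, were both higher. Igf2bp1 was 22.2-fold below Igf2bp2 per length (6.02 to 81.9) and 46.1-fold below Igf2bp3 (13.5 to 158). With so few counts these sizes are loose: the gap to Igf2bp2 was 37.4-fold in A and 13.2-fold in B, and that to Igf2bp3 30.1-fold and 70.6-fold. Other lengths gave 16.5-fold to 36.5-fold and 38.7-fold to 114-fold. For Igf2bp3, 34.5% of windows occur in another gene, chiefly Malsu1.

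Lin28b encodes an inhibitor of let-7 microRNA maturation, and let-7 in turn represses Lin28b. It stood at 39.4 CPM in A and 34.5 CPM in B, or 4.35 and 3.80 RPKM, from 312 and 474 counts. Its paralogue Lin28a had no count in either library, which allows up to 3 counts, or 0.379 CPM at the depth of A and 0.218 CPM at that of B. Against 3 counts in each library, Lin28b was at least 45.8-fold higher per length in A and at least 69.6-fold higher in B. The sequences below show the pairing by which let-7 is known to act on it. The first pair are mature mouse microRNAs from RefSeq (GRCm38.p6), with the seed, bases 2 to 8, in capitals. The rest are the 4 matches to that seed in the 3′ untranslated region of Lin28b (4445 bases, GENCODE M21 transcript Lin28b-201), with the match CTACCTC in capitals.
mmu-let-7a-5p: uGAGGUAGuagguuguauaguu
mmu-let-7b-5p: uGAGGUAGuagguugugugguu
Lin28b site 1: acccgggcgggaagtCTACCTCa
Lin28b site 2: tatacttgttagtaaCTACCTCt
Lin28b site 3: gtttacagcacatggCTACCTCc
Lin28b site 4: aaatgatggcaccgaCTACCTCt
The sites lie on the minus strand of GRCm38 at chr10:45381022-45381044, chr10:45378648-45378670, chr10:45378476-45378498 and chr10:45377060-45377082. All 10 distinct mature sequences of the let-7 family in RefSeq share the seed GAGGUAG. The match to it, CTACCTC, was searched on the transcript strand only. At least 1 match occurs in 24.2% of 1271 3′ untranslated regions within 20% of this length, and at least 4 matches in 0.236%. The 3′ untranslated region of Igf2bp1 also holds 4 matches and that of Lin28a holds 2. Mature let-7 was not measured: the let-7 precursor and host genes listed had at most 5 counts in either library. A match describes the sequence, not binding in these cells.

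Most members differed by less than 2-fold between the libraries. The counts of each gene in B and A were set against the library totals in a two-sided exact binomial test, adjusted over 14107 genes by the Benjamini-Hochberg method, and a gene was called at an adjusted p under 0.05 and at least 2-fold. The test compares these libraries of 1 group, and separately amplified libraries differ by more than counting error. Of 39 members with at least 10 counts, 7 (17.9%) were called, where 42.6% of all tested genes were. The share in the whole table was not taken from genes of like level, so the lower share describes these 39 genes only.

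Higher in B were 5 members, where 32.3% of all tested genes were higher in B: Elavl1 by 2.47-fold (adjusted p = 1.3e-77, exact binomial test), Cpeb1 by 2.63-fold, Fxr2 by 2.19-fold, Cpeb2 by 2.16-fold and Khdrbs3 by 2.05-fold. Higher in A were 2 members, where 10.3% of all tested genes were: Celf6 by 15.1-fold and Mbnl3 by 4.86-fold (adjusted p = 1.4e-05, exact binomial test). The direction depends on scaling. The median log2 ratio of B over A was 0.33 for the members and 0.53 for all tested genes. Scaling by TMM, which sets most genes equal between libraries, moved the scale of B over A by a log2 of -0.38. None of the members was then higher in B, against 23.1% of all tested genes, and 4 were higher in A, against 14.8%: Celf6, Mbnl3, Celf5 and Qk. Celf6 and Mbnl3 were thus called in A under both scalings.

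**Figure D4:**
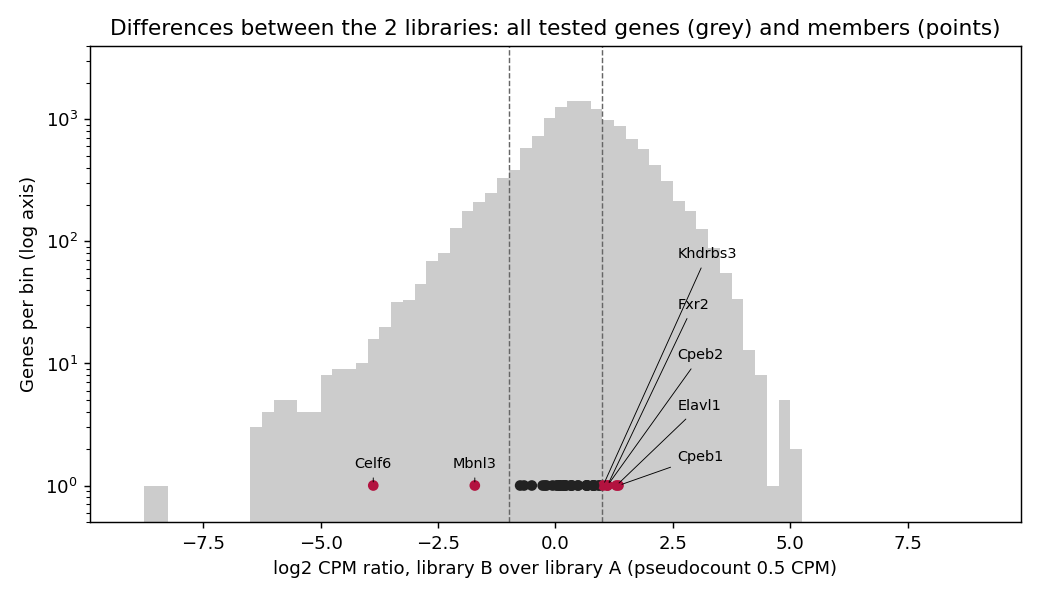
Number of genes per bin of the log2 CPM ratio of library B over library A for all tested genes (grey, log axis), with the 39 tested members as points at an arbitrary height and dashed lines at 2-fold. The 7 called members are red and named. Celf6 lies farthest to the left, and the members called in B lie just beyond the right line.

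Other genes of RNA processing give the setting, and their calls are read against the 32.3% of all tested genes higher in B and the 10.3% higher in A. All 15 SR protein genes examined, which encode general splicing activators, were detected, and 1 was higher in B and 2 in A (0 and 3 under TMM scaling). Srsf5 was 2.22-fold higher in B, at 875 CPM against 395 CPM in A. Srsf6 and Tra2a were 3.64-fold and 10-fold higher in A; Tra2a stood at 62.7 CPM in B and 627 CPM in A. Srrm2, a scaffold of nuclear speckles, was the highest of that list in A at 203 RPKM, above Celf4, and stood at 117 RPKM in B. All 26 hnRNP genes were detected, among them Hnrnpd at 54.4 RPKM in A and 68.0 RPKM in B and Hnrnpa0 at 70.6 and 34.4 RPKM. Of them 4 were higher in B and 1 in A (3 and 2 under TMM scaling). Of 15 core spliceosome genes 14 were detected, 8 were higher in B and 1 in A (5 and 1 under TMM scaling). All 17 genes of RNA granules and local translation were detected. Of them 6 (35.3%) were higher in B, a share near that of all tested genes, and 0 in A (2 and 1 under TMM scaling). Cyfip2, a partner of FMRP, was the highest of that list at 100.4 RPKM in A and 103 RPKM in B. Of 13 RNA-binding protein genes of epithelium, muscle and germ line, only Rbm24 was detected, at 3.54 and 4.0 CPM. Esrp1, Boll and Lin28a had no count in either library.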

How the data were processed

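The authors deposited 1 table per library, with a whole-number count of reads for each gene symbol. Single-end libraries were made from total RNA with the Nugen Ovation Ultralow V2 kit, per the labels' protocols. Trimmomatic 0.32, TopHat2 2.0.10, HTSeq 0.6.1 and mm9 were used, per the submitters' processing notes. The annotation and strand setting are not given in the sources, so overlapping and antisense genes cannot be told apart. The 5 summary lines per table (73.19% of reads in A, 69.06% in B) were left out.

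CPM used the gene totals. Lengths were unions of exons in GENCODE M21 (GRCm38, a later build than mm9, used only for lengths and sequences). With 1 group, edgeR 4.0.16 (R 4.3.3) had no contrast for its quasi-likelihood test and supplied TMM factors and a trended dispersion for the intervals, with a pseudocount of 0.5 counts. Log2 ratios of libraries used 0.5 CPM. DESeq2 1.42.0 gave size factors only. Python 3.11.15 and scipy 1.17.1 did the rest. Hnrpll in the hnRNP list was matched by synonym to Hnrnpll, the symbol in the counts. The scripts were tested on simulated data. All 40 members were named, with 28 fixed pairs, of which 1 is counted but not reported here. Members and lists were chosen with earlier results of these data known. Reads carry no molecular identifiers, so limits and binomial tests cover counting error only. Scaling, filters, thresholds, lengths, dispersion, pseudocount and each library were varied.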

Additional observations from a re-analysis of the deposited data

How the results depend on the processing

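Of 40 genes, 7 differed between libraries; this became 4 under TMM scaling and under DESeq2 size factors, and 32 with no fold minimum. Of these, 5 were higher in B, which became 0 under both scalings and 25 with no fold minimum. Those higher in A numbered 2, then 4 under both scalings and 7 with no fold minimum. Neuronal genes higher than their broad paralogue numbered 5, then 3 with the interval widened for 28 pairs, and 3 to 6 with 1 library left out. The log2 ratio of Ptbp2 over Ptbp1, 1.89, kept that value under the widened interval (-0.21 to 3.98) and ran from 1.75 to 2.03 with 1 library left out. It was 2.59 with the longest transcript, 2.90 per coding length, 2.84 uncorrected and 2.44 with exons of protein-coding transcripts. Some log2 ratios with no clear direction changed sign. Celf6 over Celf1, at 0.56, ran from -1.87 without A to 3.0 without B and was -0.56 per coding length and -0.66 uncorrected. Celf5 over Celf1, at 0.48, ran from -0.37 without A to 1.34 without B. Celf3 over Celf1, at -0.63, became 0.055 with the longest transcript and 0.081 with unique windows. Fxr1 over Fmr1, at 0.38, became -0.17 per coding length and -0.070 uncorrected. The ELAV share of 93.6% became 88.7% per coding length, 90.1% without length correction and 90.4% with exons of protein-coding transcripts. The RBFOX share of 70.1% became 75.2% with the longest transcript, 60.1% per coding length and 57.6% uncorrected. The CELF share of 82.3% became 78.9%, 63.9% and 62.4% in the same order, 79.7% with protein-coding exons and 95.3% with Celf2 as neuronal. The PTBP share of 78.7% became 85.7%, 88.2% and 87.7% in the same order and 84.4% with protein-coding exons. This is the share of Ptbp2 among Ptbp1 and Ptbp2 only, and counting Ptbp3 would lower it. These shares changed only through the length used, or the class of Celf2, since the counts stayed the same. Which length suits these cells best was not tested. Of 224 values of the 28 pairs with both libraries kept, 204 kept their direction and side of the threshold, 7 lost separation, 7 gained it and 6 changed sign. With 1 library left out, 47 kept both, 6 lost separation, 1 gained it and 2 changed sign. The count of 204 includes values under a common dispersion and under the widened interval. These alternatives leave each ratio unchanged, so they cannot change its direction, and a pair not separated at first cannot lose separation. Protein-coding exons, unique windows and Celf2 as neuronal were chosen after seeing the data. No paired analysis was possible because the study has 1 group. With 2 pooled libraries and 1 residual degree of freedom, the spread of any single gene is poorly known, and gene counts do not show isoforms or protein.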
